A study of Arabidopsis thaliana with 8 samples.

Results

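Alpha-expansins are small secreted proteins that loosen plant cell walls. The genes described here are 10 alpha-expansin genes linked to roots, EXPA1, EXPA4, EXPA5, EXPA7, EXPA8, EXPA10, EXPA12, EXPA14, EXPA17 and EXPA18, taken by locus identifier from a table of 40246 features. All 10 stood in the table, and 9 of them were among the 20262 features with enough counts to be tested. EXPA5 was not tested, with 0 to 3 counts per library. EXPA12 passed the filter on low counts only through the wild type libraries at low Pi, so that a difference between this group and the others was built into its selection.

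RNA was taken from roots of Arabidopsis thaliana (Col-0) at a seedling age of 7 days, and its polyadenylated fraction was sequenced in 4 groups of 2 libraries. The plants were wild type or bzr1-D, a line with a dominant gain-of-function allele of the transcription factor BZR1, and had been moved at day 6 to adequate phosphate (Pi, 0.625 mM) or to low Pi (1 µM) for 24 h. All seedlings had been raised on MS medium with 0.2% sucrose at 22 °C, in cycles of 16 h light and 8 h dark. The labels call the libraries of a group biological replicates and number them as experiment (Exp) 1 and Exp 2. The allele is carried in the whole plant, so the roots of bzr1-D had developed with it before the move.

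Expansins act on the wall at acid pH without cutting its polymers, and let cellulose microfibrils slip past each other as a cell takes up water and grows. The alpha family has many members, and single members are used by particular cells, such as root hairs or the cells that cover a young lateral root. Brassinosteroids, the steroid hormones whose signal BZR1 carries to the genome, promote cell elongation, and expansin genes are among the growth genes studied downstream of them. In roots short of Pi, plants commonly alter root hairs and branching, and both are sites of local wall loosening.

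EXPA7 and EXPA18 are the alpha-expansins of root hairs. Their promoters are shown because these genes varied together across the 8 libraries and because both hold the root hair element (RHE), a sequence known from promoters of root hair genes. The sequences are the 300 bases before the RefSeq gene start, on the strand of the gene, in build TAIR10.1, at chr1:4276205-4276504 for EXPA7 and chr1:23331263-23331562 for EXPA18, both on the plus strand. Capitals mark the RHE match.
EXPA7: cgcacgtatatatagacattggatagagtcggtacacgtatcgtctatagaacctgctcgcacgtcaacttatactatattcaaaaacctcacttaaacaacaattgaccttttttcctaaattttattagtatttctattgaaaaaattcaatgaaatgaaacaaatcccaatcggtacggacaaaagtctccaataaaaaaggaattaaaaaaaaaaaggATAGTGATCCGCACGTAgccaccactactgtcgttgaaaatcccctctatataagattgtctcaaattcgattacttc
EXPA18: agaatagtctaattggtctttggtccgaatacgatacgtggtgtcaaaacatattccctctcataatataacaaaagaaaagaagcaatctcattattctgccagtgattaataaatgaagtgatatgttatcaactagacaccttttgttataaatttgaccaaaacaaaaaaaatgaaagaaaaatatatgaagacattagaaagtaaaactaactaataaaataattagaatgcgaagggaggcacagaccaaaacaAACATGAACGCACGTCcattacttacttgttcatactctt
The RHE match lay 78 to 62 bases before the start of EXPA7 and 40 to 25 bases before that of EXPA18. Searched on both strands, the RHE was found in 2 of the 10 members and in 0.915% of 27443 promoters of the same length. Among 23 genes of a root hair list, 7 promoters held it. The element is known from promoters of such genes, so these shares are a description and not an independent test. The window of EXPA18 overlaps a neighbouring annotated gene, AT1G62978.

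The motif CGTGCG, which has the core of the brassinosteroid response element bound by BZR1, was read on the opposite strand inside both RHE matches, so the motifs overlap. It matched at 3 places in the EXPA7 window and at 1 in the EXPA18 window. Of all promoters, 1.78% held it. The other form of that element, CGTGTG, was found in the window of EXPA1 alone among the members, against 6.11% of all promoters. The G-box CACGTG was in 0 of the 10 windows and 7.09% of all promoters, and the broader E-box CANNTG in 8 of 10 and 61.9%. GNATATNC, the element bound by the Pi starvation factor PHR1, was found for EXPA8 alone, against 6.50% of all promoters. These matches describe letters in a window and are not evidence of binding.

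Total counts per library lay between 15947895 and 22150569. Levels are given as counts per 1000000 counts (CPM, scaled by TMM), and between genes as CPM per kb of the longest RefSeq transcript. All 7 root identity markers, among them CASP1 of the endodermis, were measured in the libraries. Their summed CPM was 551 to 707 in the wild type libraries and 512 to 560 in those of bzr1-D. Averaged over Pi supplies, 3 of the 7 were higher and 4 lower in bzr1-D. Summed CPM of 10 shoot genes was 32.8 to 69.9 in the wild type libraries and 60.8 to 84.1 in those of bzr1-D. Summed CPM of 8 touch and wounding genes was 249 to 585 in wild type at low Pi and 117 to 241 in the other 6 libraries. Averaged over Pi supplies, 9 of 9 tested shoot genes were higher in bzr1-D and 8 of 8 touch and wounding genes were lower, while LHCB1.2 and RBCS3B of the shoot list had 0 counts in 1 and 2 libraries. The part of these lists in the results below was not tested. In whole roots, fewer cells of a type and less RNA per cell cannot be told apart.

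Per length, EXPA4 was the most abundant member, with a mean of 44.0 CPM per kb over the 8 libraries, and it ranked at place 1 in 7 of them. EXPA7 followed with 24.1 CPM per kb, EXPA14 with 22.5, EXPA18 with 19.0 and EXPA1 with 11.6. EXPA17 stood at 8.64 CPM per kb and EXPA8 at 7.76. The lowest were EXPA12 at 0.987, EXPA10 at 0.333 and EXPA5 at 0.0621 CPM per kb. In every library 7 members were at 5.84 CPM or more, and the other 3 were at 5.67 CPM or less.

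The order of neighbours held only in part within groups. In wild type at adequate Pi, the libraries of EXPA4, EXPA7, EXPA14 and EXPA18 overlapped from each gene to the next, whereas EXPA18 and EXPA1 were separate. In bzr1-D at adequate Pi, EXPA4 (46.7 ± 22.1 CPM per kb, SD, n = 2) was separate from EXPA14 (23.9 ± 2.59), and EXPA14 from EXPA7 (12.9 ± 6.31). EXPA7 held rank 2 in the other 3 groups and rank 3 in bzr1-D at adequate Pi. The plot of levels per length shows these groups side by side.

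**Figure D1:**
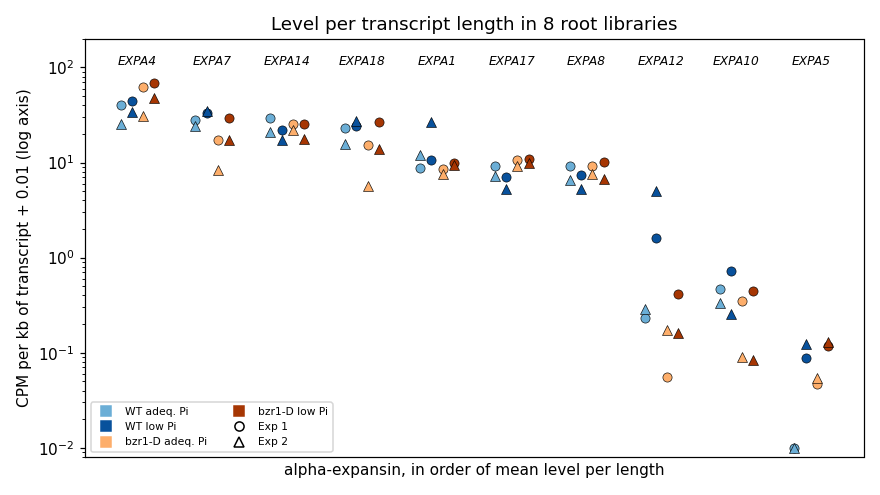
Level per length (CPM per kb of transcript, with a small constant added so that 0 can be drawn, log axis) of the members, in order of their mean. Each point is a library, coloured by group, with circles for Exp 1 and triangles for Exp 2. EXPA4 stands highest with a mean of 44.0 CPM per kb and EXPA5 lowest with 0.0621.

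**Figure D2:**
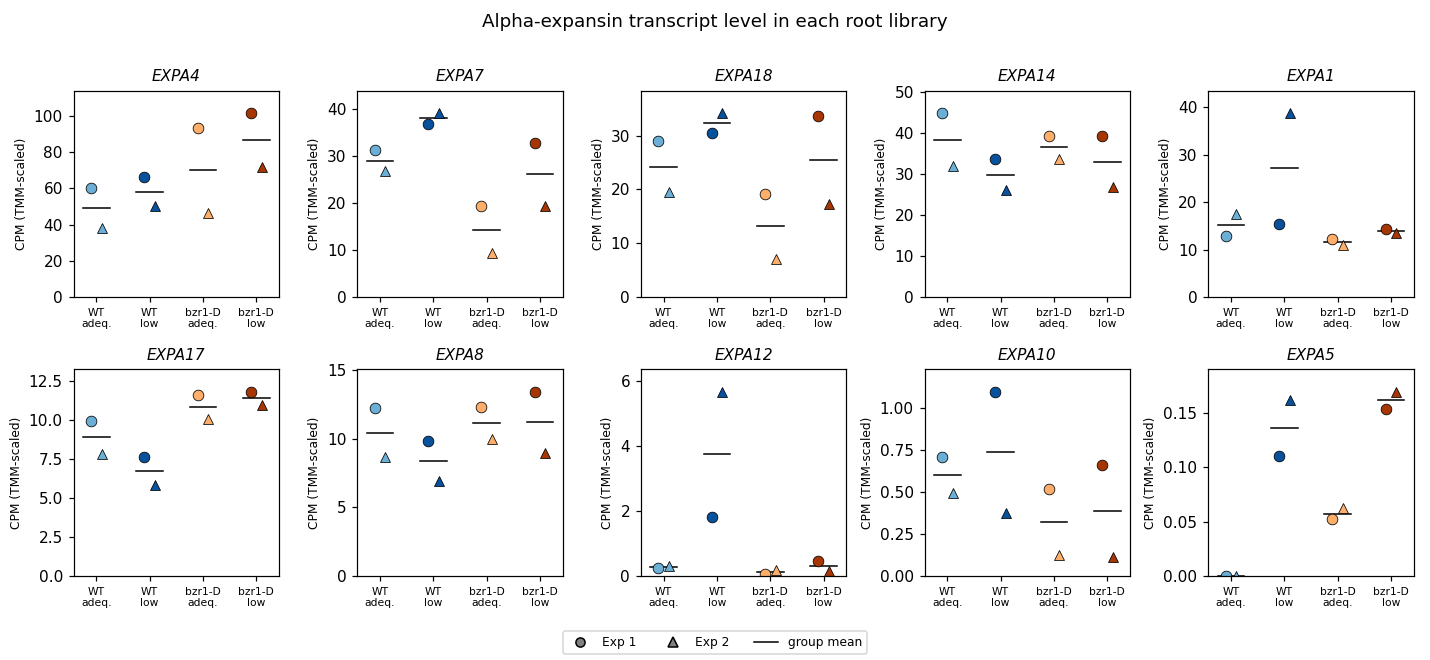
CPM of each member in each of the 8 libraries, in a panel per gene with its own axis from 0; points are libraries by group, with circles for Exp 1 and triangles for Exp 2, and bars are group means. The panel of EXPA5 rests on 0 to 3 counts per library. EXPA12 reaches 5.67 CPM in a wild type library at low Pi and lies at 0.46 CPM or below in every library of the other groups.

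EXPA12 (AT3G15370, TAIR10 chr3:5190572-5192077, plus strand) gave the largest differences among the members, at a low level. Its CPM was 0.253 and 0.315 in wild type at adequate Pi (Exp 1 and Exp 2) and 1.82 and 5.67 in wild type at low Pi. The bzr1-D libraries held 0.0520 and 0.186 CPM under adequate Pi, then 0.460 and 0.170 under low Pi. The wild type libraries at low Pi were the highest, and they did not overlap with any other group. Counts ranged from 1 to 9 outside that group, and were 33 and 105 in it.

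A gene is said to be called, to rise or to fall where its adjusted p over all features tested was under 0.05. Counts of comparisons within an Exp that point 1 way are descriptions, as the share of all features with such agreement was not taken. Libraries with the same Exp number deviated together from their group means, so values from a fit with the Exp number as a replicate block (blocked) are given beside those without it where the call differs. At low Pi, EXPA12 was lower in bzr1-D than in wild type by a log2 difference of -3.52 ± 0.71 (SE), which missed the threshold with an adjusted p of 0.0588 in the edgeR quasi-likelihood test with Benjamini-Hochberg adjustment. With the block the same edgeR test gave -3.39 ± 0.53 and an adjusted p of 0.00223, which stayed under 0.05 on leaving out any of the 8 libraries. DESeq2 gave -3.56 with an adjusted p of 0.00156. Because the wild type libraries at low Pi let EXPA12 pass the filter, its tests against them are a description and support nothing further. With no filter on low counts, edgeR without the block gave -3.53 with an adjusted p of 0.0386. The members were chosen with earlier results of these data known, so this value is a description as well. As a ratio of counts per scaled library, wild type stood above bzr1-D by 3.95 in Exp 1 (95% exact interval 1.85 to 9.39, counting error only) and by 33.5 in Exp 2 (11.1 to 165). Both experiments therefore had the same direction, with sizes that differed widely.

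The Pi response of EXPA12 in wild type, under the same limit, was 3.69 ± 0.70 (log2, SE) with an edgeR adjusted p of 1.00, and 3.64 ± 0.53 with an adjusted p of 0.0410 in the blocked edgeR test. This blocked call was kept in 3 of 8 leave-outs and lost without wild type adequate Pi Exp 1 (0.220) or Exp 2 (1.00), wild type low Pi Exp 2 (0.680), or bzr1-D adequate Pi Exp 1 (0.178) or Exp 2 (0.177; edgeR adjusted p). The ratio of low to adequate Pi in wild type was 7.17 in Exp 1 (2.78 to 23.5) and 18.0 in Exp 2 (8.45 to 45.9). In bzr1-D the ratio was 8.84 in Exp 1, from 9 and 1 counts (1.22 to 387), and 0.910 in Exp 2, from 3 and 3 counts (0.122 to 6.79). The difference of the Pi responses, -2.25 ± 1.51, had an edgeR adjusted p of 1.00, so that it was not shown to differ between the genotypes. Each Pi response shares libraries with each genotype difference, and the wild type libraries at low Pi enter both calls.

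The average over Pi supplies includes the wild type libraries at low Pi, so for EXPA12 it is a description as well. In it EXPA12 was lower in bzr1-D by -2.40 ± 0.65 (log2, SE), with an edgeR adjusted p of 0.0993. The blocked edgeR test gave -2.31 ± 0.57 with an adjusted p of 0.0187. DESeq2 gave -2.43 with an adjusted p of 0.00963, and edgeR with no filter on low counts and no block gave -2.41 with 0.0777. It lay below wild type in 4 of 4 comparisons within an Exp and Pi supply. The blocked call was lost on leaving out any of the 4 libraries at adequate Pi, with an edgeR adjusted p of up to 0.0944. The library of wild type at low Pi from Exp 2, which held the highest EXPA12 level, was also the highest library for 5 of 8 touch and wounding genes and for 4 of the 9 members tested. Without it, the blocked difference at low Pi was -2.41, with an edgeR adjusted p of 0.0393. Without wild type low Pi Exp 1 and with no block, the genotype difference was -4.14 at low Pi and -2.71 averaged (log2). That fit leaves 1 library in the group, the one with the highest EXPA12 level.

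EXPA17 (AT4G01630, TAIR10 chr4:700653-701527, plus strand) and EXPA14 (AT5G56320, TAIR10 chr5:22808641-22810237, plus strand) have been linked to the emergence of lateral roots, downstream of the transcription factor LBD18. EXPA17 was measured at 9.98 and 7.87 CPM in wild type at adequate Pi and at 7.65 and 5.84 at low Pi. In bzr1-D it stood at 11.6 and 10.07 CPM under adequate Pi and at 11.8 and 10.96 under low Pi. Every bzr1-D library lay above every wild type library, though the closest pair was 10.07 against 9.98 CPM. Of all features tested, 5.69% were separated in this direction over the 8 libraries.

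The genotype difference of EXPA17 at low Pi was 0.76 ± 0.20 (log2, SE), with an edgeR quasi-likelihood adjusted p of 0.137. It passed in the blocked edgeR test, with 0.76 ± 0.14 and an adjusted p of 0.00439. For the average over Pi supplies the blocked value was 0.53 ± 0.10, with an edgeR adjusted p of 0.00269, against 0.52 ± 0.14 and 0.0893 without the block. Both blocked calls were kept on leaving out any of the 8 libraries, and the averaged difference then ranged from 0.48 to 0.57. At adequate Pi alone the difference was 0.29 ± 0.19, with an edgeR adjusted p of 0.889, and 0.305 with the block.

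EXPA17 gave a Pi difference below 0 in wild type (-0.40 ± 0.20, log2, SE) and near 0 in bzr1-D (0.07 ± 0.19). The value of bzr1-D ran from -0.023 to 0.18 on leaving out 1 library, so its sign was not settled. Low Pi against adequate Pi was -0.38 in Exp 1 and -0.42 in Exp 2 of wild type (log2 CPM), and 0.02 and 0.12 in bzr1-D. The difference of the responses, 0.47 ± 0.27, did not pass, with an edgeR adjusted p of 1.00.

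EXPA14 was at a higher level and nearer to equal across genotypes. The wild type libraries gave 44.9 and 31.8 CPM at adequate Pi, then 33.6 and 26.0 at low Pi. The bzr1-D libraries gave 39.3 and 33.7 CPM under adequate Pi and 39.2 and 26.7 under low Pi. It was lower at low Pi in 4 of 4 comparisons within a genotype and Exp, with log2 differences from -0.42 to -0.0035. The Pi difference averaged over genotypes was -0.25 ± 0.17, or -0.26 ± 0.07 with the block, with edgeR adjusted p of 1.00 and 0.300. The genotype difference averaged over Pi supplies was 0.04 ± 0.17, the smallest among the tested members.

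Of the 12 tested genes of a lateral root list, 1 rose and 2 fell in bzr1-D averaged over Pi supplies in the blocked edgeR test, and 0 were called without the block. LBD16, which starts lateral root founder cell division, fell by 0.42 on the log2 scale (edgeR adjusted p 0.0121, blocked), and the root meristem factor PLT3 fell by 0.42 (0.00290). GATA23, a marker of founder cell identity, rose by 0.99 (0.0322). The members of that list thus moved in both directions where EXPA17 was higher. Over all features, 15.3% were called in this blocked comparison.

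EXPA7 (AT1G12560, TAIR10 chr1:4276519-4277899, plus strand) was measured at 31.3 and 26.8 CPM in wild type at adequate Pi and at 36.8 and 39.2 at low Pi. In bzr1-D its CPM was 19.3 and 9.38 at adequate Pi and 32.8 and 19.4 at low Pi. At each Pi supply the bzr1-D libraries lay below those of wild type without overlap, and bzr1-D at adequate Pi held the lowest library. Of all features tested, 17.1% at adequate and 18.5% at low Pi were separated in this direction.

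EXPA18 (AT1G62980, TAIR10 chr1:23331676-23333110, plus strand) showed nearly the same profile. It was at 29.1 and 19.5 CPM in wild type at adequate Pi and at 30.5 and 34.3 at low Pi. The bzr1-D libraries were at 19.2 and 7.08 CPM under adequate Pi and at 33.7 and 17.4 under low Pi. Here the groups at low Pi overlapped, since the bzr1-D library of Exp 1 lay above that of wild type.

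The genotype difference of EXPA7 at adequate Pi was -1.01 ± 0.35 (log2, SE), with an edgeR adjusted p of 0.341, and -1.05 ± 0.29 with 0.143 in the blocked edgeR test. That of EXPA18 was -0.88 ± 0.48, with an edgeR adjusted p of 0.749, or 0.428 with the block. On leaving out 1 library, without the block, the value of EXPA7 ran from -1.63 (without bzr1-D adequate Pi Exp 1) to -0.59 (without bzr1-D adequate Pi Exp 2), and that of EXPA18 from -1.77 to -0.34 without the same libraries. Averaged over Pi supplies, EXPA7 differed by -0.77 ± 0.25 with an edgeR adjusted p of 0.159. It passed in DESeq2, with an adjusted p of 0.0299, and missed in the blocked edgeR test, with 0.0627. In this comparison edgeR called 5.37% of all features without the block and 15.3% with it. EXPA18 differed by -0.61 ± 0.33, with an edgeR adjusted p of 0.487. Neither gene was called over all 8 libraries by edgeR. In blocked edgeR fits at adequate Pi, both were called without wild type low Pi Exp 1 (adjusted p 0.0134 for EXPA7 and 0.0142 for EXPA18) and without wild type low Pi Exp 2 (0.00894 and 0.0101), libraries that are not in that comparison but share its estimate of spread. Averaged over Pi supplies, the blocked edgeR test called both without wild type low Pi Exp 1 (0.00388 and 0.00271), and EXPA7 without wild type low Pi Exp 2 (0.0191) or bzr1-D adequate Pi Exp 1 (0.0137). At low Pi, it called both without wild type low Pi Exp 1 (0.0496 and 0.0322).

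Both root hair expansins were higher at low than at adequate Pi in 4 of 4 comparisons within a genotype and Exp, by 0.23 to 1.04 for EXPA7 and by 0.07 to 1.28 for EXPA18 on the log2 scale. The Pi difference of EXPA7 was 0.39 ± 0.34 in wild type and 0.86 ± 0.35 in bzr1-D, and that of EXPA18 was 0.42 ± 0.47 and 0.95 ± 0.48. All 4 had an edgeR adjusted p of 1.00. The blocked edgeR values averaged over genotypes were 0.63 ± 0.20 for EXPA7 and 0.73 ± 0.29 for EXPA18, with adjusted p of 0.662 and 0.841, and EXPA18 was called without wild type low Pi Exp 1 (0.0143).

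Across the 8 libraries, log2 CPM of EXPA7 and EXPA18 correlated with Pearson r = 0.98, a description of libraries that share genotype, Pi supply and Exp. The ratio of EXPA7 to EXPA18 in CPM stayed between 0.973 and 1.38. The genes most like EXPA18, out of 15377 features of at least 5 CPM, were RHS19, RHS13 and EXT6, with r = 0.995 each over the 8 libraries. Those most like EXPA7 were RHS12 with 0.991, EXT12 with 0.990 and RHS14 with 0.989. RHS genes were named for expression specific to root hairs, and EXT genes encode extensins, structural wall proteins.

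**Figure D3:**
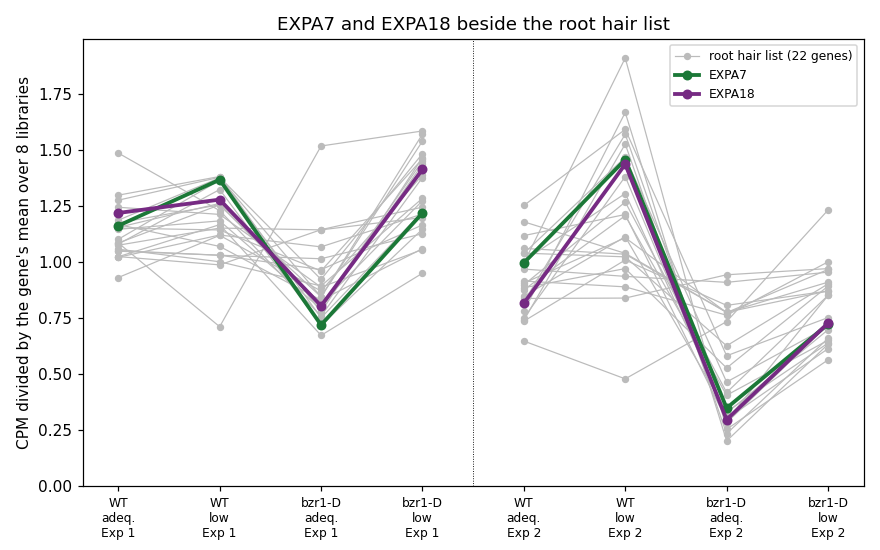
CPM divided by the gene's own mean over the 8 libraries (linear axis from 0), for EXPA7 in green, EXPA18 in purple and the 22 tested genes of the root hair list in grey, with Exp 1 on the left and Exp 2 on the right. EXPA7 and EXPA18 follow each other and have their lowest value in the bzr1-D library at adequate Pi of Exp 2, as do 19 of the 22 list genes.

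The summed CPM of the wider root hair list was lowest in the same library as EXPA7 and EXPA18. Its highest library was bzr1-D at low Pi of Exp 1, and that of both expansins was wild type at low Pi of Exp 2. From the lowest to the highest library, single list genes spanned 1.24-fold (RHD4) to 8.24-fold (RHS13), beside 4.18-fold for EXPA7 and 4.84-fold for EXPA18. The summed CPM was 923 to 1147 in wild type at adequate Pi and 1216 to 1219 at low Pi. In the bzr1-D libraries it was 613 to 986 under adequate Pi and 851 to 1378 under low Pi. For 19 of 22 tested list genes the lowest library was bzr1-D at adequate Pi of Exp 2. This count rests on 1 library, the one with the fewest total counts (15947895), and its share over all features was not taken. The CPM of EXPA7, which is not in the list, came to 1.53% of the summed list CPM in that library and to up to 3.21% of it in wild type at low Pi.

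At adequate Pi, 19 of 22 root hair genes were lower in bzr1-D, with a median log2 difference of -0.67 beside 0.01 over all features tested. At low Pi, 15 of 22 were lower, with a median nearer to that of all features (-0.20 beside 0.01). Averaged over Pi supplies, RSL4, the bHLH factor that drives hair elongation, fell by 0.78 on the log2 scale (SE 0.16, edgeR adjusted p 0.0326). In the blocked edgeR test of that average, 5 list genes fell (RSL4, LRL3, MRH6, RHS12 and ROPGEF3) and 2 rose (RSL1 and CSLD3) of the 22 tested, beside 8.48% of all features that fell and 6.77% that rose. RSL1, a bHLH factor of early hair cell fate, was higher by 0.81 ± 0.17 (edgeR adjusted p 0.00705, blocked), and the cellulose synthase-like CSLD3 by 0.22 ± 0.06 (0.0280). In the Pi response of bzr1-D, all 22 were higher at low Pi, with a median of 0.65, and 0 were called by edgeR with or without the block. In that of wild type, 16 of 22 were higher, with a median of 0.16, and again 0 were called.

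EXPA4 (AT2G39700, TAIR10 chr2:16543832-16545584, minus strand) was at 60.1 and 38.1 CPM in wild type at adequate Pi and at 66.1 and 50.4 at low Pi. In bzr1-D it stood at 93.4 and 46.7 CPM at adequate Pi and at 102 and 71.7 at low Pi. Exp 1 lay above Exp 2 in every group, by a ratio of 1.31 to 2.00, and within each Exp the bzr1-D library lay above that of wild type. The 4 genotype differences within an Exp and Pi supply ranged from 0.29 to 0.64 on the log2 scale.

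Without the block, the genotype difference of EXPA4 averaged over Pi supplies was 0.54 ± 0.26 (log2, SE), with an edgeR adjusted p of 0.387. That value ran from 0.25 without bzr1-D adequate Pi Exp 1 to 0.75 without bzr1-D adequate Pi Exp 2. With the block it was 0.52 ± 0.09, with an edgeR adjusted p of 0.00291, and the call was kept on leaving out any of the 8 libraries. At low Pi the blocked value was 0.56 ± 0.13 with an edgeR adjusted p of 0.0211, against 0.717 without the block. Leaving out wild type low Pi Exp 1 (0.135) or bzr1-D low Pi Exp 2 (0.151, both edgeR adjusted p) ended that call. At adequate Pi it was 0.48 ± 0.13 with 0.0512 in the blocked edgeR test, and it was called without wild type low Pi Exp 1 (0.0157) or Exp 2 (0.0152) or bzr1-D adequate Pi Exp 2 (0.0101). EXPA4 was also higher at low Pi in 4 of 4 comparisons, by 0.12 to 0.62, with no call in any fit of all 8 libraries, and a blocked edgeR call of the average Pi response without wild type low Pi Exp 1 (adjusted p 0.0459).

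EXPA8 (AT2G40610, TAIR10 chr2:16948863-16950557, minus strand) was at 12.2 and 8.63 CPM in wild type at adequate Pi and at 9.80 and 6.92 at low Pi. In bzr1-D its CPM was 12.3 and 10.003 at adequate Pi and 13.4 and 8.99 at low Pi. It was higher in bzr1-D in 4 of 4 comparisons within an Exp and Pi supply, by 0.01 to 0.45 on the log2 scale. The difference at low Pi was 0.43 ± 0.28, with an edgeR adjusted p of 0.739, or 0.0788 with the block, so that neither passed.

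EXPA1 (AT1G69530.1, TAIR10 chr1:26141836-26143496, plus strand), studied for wall loosening in guard cells and in lateral root founder cells, was at 12.8 and 17.5 CPM in wild type at adequate Pi and at 15.4 and 38.9 at low Pi. In bzr1-D it ranged from 10.997 to 14.3 CPM over the 4 libraries. A single library, wild type at low Pi of Exp 2, stood far above the others. The Pi difference in wild type was 0.84 ± 0.38 (log2, SE) with an edgeR adjusted p of 1.00. Without that library it was 0.01, and without its partner from Exp 1 it was 1.36, or 1.32 with the block, where the edgeR adjusted p was 0.00149.

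The genotype difference of EXPA1 at low Pi was -0.96 ± 0.39, with an edgeR adjusted p of 0.421. It came to -0.13 without wild type low Pi Exp 2, and to -1.49 with an edgeR adjusted p of 0.0369 without wild type low Pi Exp 1. Averaged over Pi supplies it was -0.67 ± 0.28 with an edgeR adjusted p of 0.300, and -0.94 with 0.0216 without wild type low Pi Exp 1. In these leave-outs the other wild type library at low Pi decides the value. EXPA1 was lower in bzr1-D in 4 of 4 comparisons within an Exp and Pi supply, with log2 differences from -1.51 to -0.06.

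EXPA10 (AT1G26770, TAIR10 chr1:9259605-9261313, plus strand), known for its part in leaf and pedicel growth, was at 0.709 and 0.495 CPM in wild type at adequate Pi and at 1.101 and 0.378 at low Pi. The bzr1-D libraries were at 0.520 and 0.124 CPM at adequate Pi and at 0.664 and 0.113 at low Pi. The lowest values rested on 2 counts each. Averaged over Pi supplies the genotype difference was -0.86 ± 0.63 with an edgeR adjusted p of 0.653, and it was lower in bzr1-D in 4 of 4 comparisons within an Exp and Pi supply.

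EXPA5 (AT3G29030, TAIR10 chr3:11011308-11013358, minus strand), studied for growth downstream of brassinosteroids, had 0 counts in both wild type libraries at adequate Pi and 1 to 3 counts in the other 6. At the limit of 3 counts that a count of 0 allows, no fold could be given, and no difference was detectable at this depth.

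**Figure D4:**
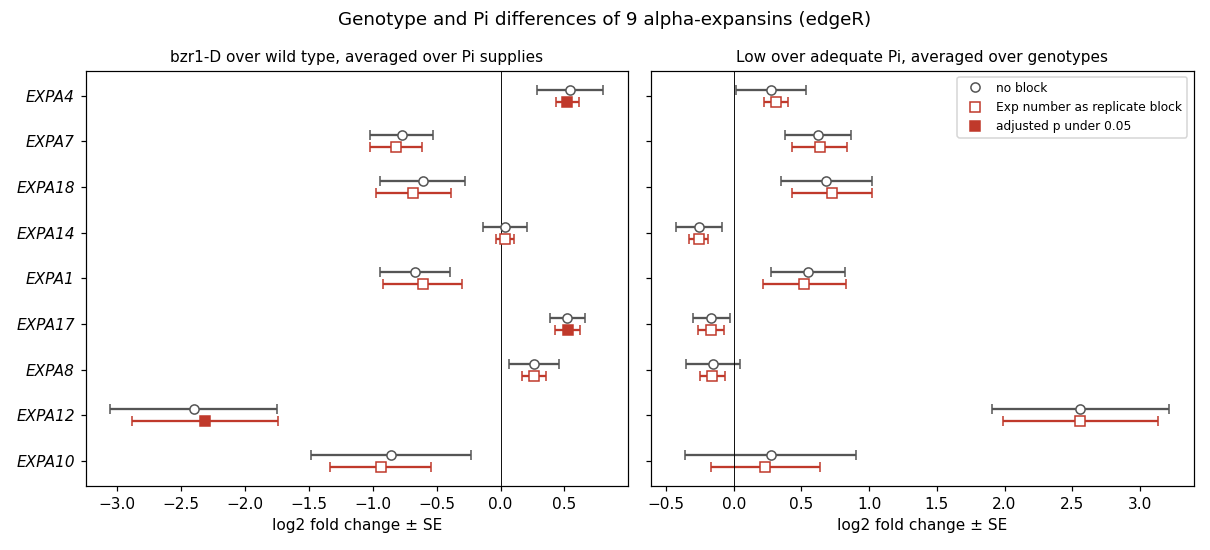
Log2 fold change ± SE of the 9 tested members for bzr1-D over wild type averaged over Pi supplies (left) and for low over adequate Pi averaged over genotypes (right), without (circles) and with (squares) the replicate block. Filled squares mark an adjusted p under 0.05 in edgeR's test, which EXPA4 (0.52), EXPA17 (0.53) and EXPA12 (-2.31, selected through wild type at low Pi) reach on the left and no member reaches on the right.

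Without the block, 0 of 9 were called in any of the 7 comparisons by edgeR. The share of all features called was 0% in both Pi responses, in their difference and in the average Pi response, 1.99% for the genotype difference at adequate Pi, 2.12% at low Pi and 5.37% averaged over Pi supplies. At an unadjusted edgeR p under 0.05, 331 features passed in the Pi response of wild type, 253 in that of bzr1-D, 159 in the difference of the responses and 442 in the average Pi response. DESeq2 called 28 of the 20262 features in the Pi response of wild type. EXPA12 was among them, but it had passed the filter only through wild type at low Pi, so its call supports nothing further.

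With the block, 1 of 9 members was called in the Pi response of wild type (EXPA12), where 0.0839% of all features were, and 0.0642% as higher at low Pi. In the genotype difference at low Pi, 3 of 9 members were called, EXPA4 and EXPA17 higher and EXPA12 lower in bzr1-D, where 9% of all features were called, 3.86% as higher and 5.14% as lower. In the average over Pi supplies it was the same 3 genes, in the same directions, where 15.3% of all features were called, 6.77% as higher and 8.48% as lower. With the block, 0 members were called in the other 4 comparisons, in which 7.4% (genotype difference at adequate Pi), 0.0197% (Pi response in bzr1-D), 0% (difference of the responses) and 0.148% (average Pi response) of all features were. EXPA12 had to differ by its selection and is not read against these shares, which leaves EXPA4 and EXPA17 in both genotype differences and no member in the Pi response of wild type. The comparisons share libraries, so these counts are not independent of each other.

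Libraries of a group that do not overlap with those of the other are common with 2 libraries a group. For the Pi response in wild type, 3 of 9 members were separate and higher and 1 was separate and lower, beside 11.9% and 10.7% of all features. In bzr1-D, 2 were separate and higher at low Pi, beside 9.92%, and 0 were separate and lower, beside 9.72%. For the genotype difference at adequate Pi, 1 member was separate and higher in bzr1-D and 4 were separate and lower, beside 15.8% and 17.1%. At low Pi these were 2 and 3 members, beside 16.3% and 18.5%. EXPA12 is among the separate members against wild type at low Pi through its selection.

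The median over the 9 members tested, EXPA12 included, is a description. For bzr1-D over wild type it was -0.38 at adequate Pi and -0.34 at low Pi (log2), beside 0.01 over all features at each. At adequate Pi 3 members were higher and 6 lower, and at low Pi 4 were higher and 5 lower. Their median Pi difference was 0.30 in wild type and 0.26 in bzr1-D, beside 0.00 over all features. The summed level of the 10 members lay between 128 and 248 CPM over the 8 libraries.

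Among the members, log2 CPM of EXPA17 ran opposite to EXPA12 and EXPA1 over the 8 libraries (r = -0.86 and -0.85), and EXPA8 ran with EXPA14 (0.89). The features most like EXPA4 were LIG1 (0.991), sks5 (0.990) and SVB (0.987), and the one most like EXPA17 with a gene symbol was MYB61 (0.980). TUB7 and scpl40 (0.986 each) were most like EXPA8, and CBL3 (0.974) most like EXPA14. The features closest to EXPA1, EXPA10 and EXPA12 were AT2G20142 (0.977), AT1G20823 (0.993) and AT1G74055 (0.982). These values describe 8 libraries and carry no test. Those of EXPA10 and EXPA12 rest on 2 to 20 and 1 to 105 counts per library.

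Of 16 further alpha-expansin genes, 7 had enough counts to be tested. In the blocked edgeR test of the average over Pi supplies, EXPA15 rose in bzr1-D by 0.30 ± 0.06 (adjusted p 0.00471) and EXPA9 fell by 0.22 on the log2 scale (SE 0.06, adjusted p 0.0431). EXPA15 was at 57.2 and 32.1 CPM in wild type and 71.3 and 40.0 in bzr1-D at adequate Pi. Of 10 beta-expansin and expansin-like genes, 6 were tested, and EXPB1 rose by 0.27 ± 0.08 (adjusted p 0.0384) and EXPB3 by 0.39 ± 0.10 (adjusted p 0.0203) in the same blocked edgeR test. None of these genes was called without the block. In the blocked comparison 15.3% of all features were called, 6.77% as higher and 8.48% as lower in bzr1-D.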

How the data were processed

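The authors deposited a table of raw read counts, 1 column for each of the 8 libraries, made from single reads of 50 bases, per the labels' protocols. TopHat2 2.0.11, HTSeq 0.6.1, DESeq2 1.2.8 and TAIR10 are named per the submitters' processing notes. For strand and for reads with several map positions, the handling is not stated in these sources, and near-identical family members could lose counts by it. None of the 10 members overlaps another annotated gene.

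Groups were taken from the sample titles, because the labels swap the strain and tissue entries. The test was edgeR's (version 4.0.16, in R 4.3.3), the robust quasi-likelihood test with 1 coefficient per group over 8 libraries, TMM scaling and the filter of edgeR on low counts (minimum count 10). Benjamini-Hochberg adjustment ran over the 20262 tested features, with calls at an adjusted p below 0.05. Standard errors are the log2 fold change divided by the square root of F. Of the 7 comparisons, 2 were Pi responses, 2 were genotype differences, 1 was the difference of the responses and 2 were averages. The pipeline was tested on simulated data. Total counts were 15947895 to 22150569, and intervals and floors (3 counts per library) cover counting error only, since reads copied by PCR are not independent molecules.

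Same-numbered libraries deviated together from their group means in all 6 pairs of groups, with correlations from 0.29 to 0.64, so the Exp numbers of the labels were taken to pair the libraries. The labels do not say what such libraries share. Replicates differed by more than counting noise, with a chi-square per degree of freedom of 16.9 to 36.3. The replicate block (Exp number) lowered the common biological coefficient of variation from 0.169 to 0.0858. Blocked values stand beside results whose call they change.

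The members and the gene lists were chosen with earlier results of these data known. Named were all members, list genes called in a comparison, though not each of them, and the 3 features most like each member by Pearson correlation in log2 CPM, among those of at least 5 CPM. Of these the text gives the highest correlation for each member and some of the others with a gene symbol. Sequences and transcript lengths come from RefSeq (TAIR10.1), in which 99.8% of matched features start within 2 kb of the table's start. Alternatives were RLE scaling, no filter, a fit without robust estimation, DESeq2 1.42.0, the replicate block, and leaving out each library, the last combined with the block after seeing the data.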

Additional observations from a re-analysis of the deposited data

Results flagged for a closer look

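The Pi differences of EXPA17 had opposite signs in the genotypes, though that of bzr1-D was near 0 (0.07 ± 0.19, log2, SE). Both wild type comparisons were below 0 (-0.38 and -0.42 in log2 CPM for Exp 1 and Exp 2) and both bzr1-D comparisons were above 0 (0.02 and 0.12). The difference of the responses was 0.47 on the log2 scale (SE 0.27), higher in bzr1-D in both experiments, and it did not pass in the edgeR quasi-likelihood test with Benjamini-Hochberg adjustment (adjusted p 1.00), nor with the replicate block (0.48, adjusted p 1.00). Leaving out each library in turn gave 0.30 to 0.67.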

How the results depend on the processing

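No member's sign or call changed under RLE scaling or the fit without robust estimation, and RLE moved the median of all features by at most 0.0040 (log2). The counts of features called over the whole table moved more. With the replicate block 17 features were called for the Pi response in wild type, 4 for that in bzr1-D, 30 for the average Pi response, 1500 and 1823 for the genotype difference at adequate and low Pi and 3090 for its average, against 0, 0, 0, 404, 429 and 1089 without it. DESeq2 called 28, 20, 57, 631 and 669 in the first 5 of these. Without a filter 1 feature was called for the average Pi response, and EXPA12 passed for the genotype difference at low Pi (edgeR adjusted p 0.0386). The signs of EXPA8 for the Pi response in bzr1-D (-0.0020, against 0.01) and EXPA10 for the difference of the responses (0.030, against -0.05) turned under the block. Leaving out 1 library gave 0 to 10 calls for the Pi response in wild type (0 to 248 with the replicate block), 0 (0 to 100) for that in bzr1-D, 0 (0 to 33) for the difference of the responses, 0 to 19 (9 to 346) for the average Pi response, 173 to 385 (631 to 1966) and 182 to 362 (1182 to 1943) for the genotype difference at adequate and low Pi, and 609 to 900 (1939 to 3428) for its average. With 1 library left out, with or without the replicate block, 24 differences of single members, none of them called over all 8 libraries, spanned 0 (log2). For the Pi response in wild type these were EXPA4 (-0.042 to 0.61), EXPA10 (-0.65 to 0.87) and EXPA18 (-0.11 to 1.00). For that in bzr1-D they were EXPA1 (-0.10 to 0.67), EXPA4 (-0.10 to 0.89), EXPA8 (-0.31 to 0.27), EXPA10 (-1.504 to 1.62), EXPA12 (-0.048 to 2.80), EXPA14 (-0.44 to 0.11) and EXPA17 (-0.023 to 0.18), and for the average EXPA10 (-0.60 to 0.96). For the difference of the responses they were EXPA1 (-1.11 to 0.25), EXPA4 (-0.35 to 0.65), EXPA10 (-1.80 to 1.33), EXPA14 (-0.078 to 0.47) and EXPA18 (-0.018 to 1.44). For the genotype difference at adequate Pi they were EXPA1 (-0.75 to 0.020), EXPA4 (-0.073 to 0.92), EXPA8 (-0.13 to 0.36) and EXPA14 (-0.30 to 0.19), at low Pi EXPA10 (-2.63 to 0.055), EXPA14 (-0.15 to 0.40) and EXPA18 (-0.99 to 0.14), and averaged EXPA14 (-0.12 to 0.17). The cause was not tested. Beside the calls named with their genes, the block changed no other call of a member. With 1 library left in a group, that library is assumed to vary like the other groups. Depth limits EXPA5, EXPA10 and EXPA12, which had 10 or fewer counts in at least some libraries.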

Other observations

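EXPA21, an alpha-expansin outside the 10 members, had 11, 8, 7 and 6 counts in the wild type libraries and 0 in all 4 bzr1-D libraries. Its wild type level was 0.407 ± 0.103 CPM (SD, n = 4), which is at least 2.45-fold higher than bzr1-D against a floor of 3 counts per library. It had too few counts to be tested and was chosen after its values were seen. EXPA19, EXPA22, EXPA23, EXPA24, EXPA25 and EXPA26 had 0 counts in all 8 libraries.

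EXPB3, a beta-expansin, stood 2.86 to 4.49 times higher in Exp 1 than in Exp 2 in all 4 groups, the ratio of EXPA4 being 1.31 to 2.00. At adequate Pi its CPM was 64.7 and 20.8 for wild type and 91.4 and 20.4 for bzr1-D. At low Pi it was 69.0 and 24.1 against 103 and 32.2.

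WRKY40 of the touch list and PSAF of the shoot list differed between genotypes averaged over Pi supplies without the block, by -1.49 ± 0.29 and 0.55 ± 0.12 on the log2 scale (edgeR adjusted p 0.0301 and 0.0429). PHT1;1, a Pi transporter of root cells, differed by -0.72 ± 0.13 (edgeR adjusted p 0.0228). Each was the only gene of its list called there, among 8 touch, 9 shoot and 7 root identity genes tested. Of all features, 5.37% were called in this comparison. With the block, 1 root identity gene was called higher and 1 lower in bzr1-D in it, beside 6.77% and 8.48% of all features. In the blocked average Pi response 1 root identity gene was called higher at low Pi, where 0.148% of all features were called in either direction.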
